A study of Mus musculus with 31 samples.

Results

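Saline through the trachea is the vehicle control of lung instillation studies, and the 6 arrays described here set it against lungs that received nothing. They were chosen by their titles, 6 of the 31 arrays of the series, each of lung tissue from male C57 BL/6 mice (C57 from here on) whose labels give an age of 6 weeks. The first 3 arrays are of C57 mice titled with 3 weeks of room air and normal saline, and the other 3 are of C57 mice titled with 6 weeks of room air and no instillation. Both groups breathed room air only, and neither received cigarette smoke or lipopolysaccharide (LPS), which other groups of the series did. The titles call the arrays of a group biological replicates, and nothing further is given on cages, litters or days. Titled exposure time differs between the groups, so instillation and exposure time cannot be told apart. The series description gives 6 weeks to the instilled mice and 3 weeks to the others, the reverse of the titles. The time from instillation to dissection is not given in the sources used here. For comparison, later paragraphs use arrays of AKR mice, another inbred strain, whose labels also give an age of 6 weeks. They are 3 arrays titled with 3 weeks of room air and normal saline, and 2 titled with 3 weeks of room air alone.

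Fluid instilled into the airways meets the alveolar epithelium and resident macrophages first, and the lung also holds a large pool of blood leukocytes in its capillaries. Patrolling monocytes, natural killer cells and B cells are among the cells of that pool, and cells that enter from blood carry genes that epithelium, endothelium and fibroblasts do not use. Heat shock proteins are chaperones that cells make more of when proteins unfold, through heat shock factor binding to repeated GAA elements. NR4A nuclear receptors are made within minutes to hours of a stimulus. In bulk lung, more cells of a type and more RNA per cell cannot be told apart.

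Values are log2 intensities, 1 probe set for each gene, and 13764 genes were bright enough to be tested. Fold changes are saline over room air alone on the log2 scale, with the standard error of the limma fit after ± and n = 3 arrays in each group. Rose and fell are used for genes with an adjusted p under 0.05. All 6 arrays carried the lung's own transcripts. Sftpc, the surfactant protein C gene of alveolar type 2 cells, lay at 13.23 to 13.54 with saline and at 13.40 to 13.53 in room air alone, and the Y-linked Eif2s3y at 9.46 to 9.65 with saline and at 9.15 to 9.71 in room air alone.

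With saline, 37 genes rose and 5 fell, 42 of 13764 (0.305% in all, 0.269% higher and 0.0363% lower). Among the genes that rose were the chemokines Ccl3 and Ccl5, the B cell genes Ms4a1, H2-Ob and Bank1 and the myeloid receptors Adgre4 and Cd300e, and the 5 that fell include the nuclear receptor Nr4a3 and the chaperone Hsph1. Without multiple testing correction, 825 genes were higher (5.99%) and 632 lower (4.59%) at p under 0.05. Every saline array lay above every room air array for 1127 genes (8.19%), and below for 1130 (8.21%). The median over all tested genes was -0.01, a value that normalization across arrays largely fixes. With replicate number as a block, 72 genes rose (0.523%) and 11 fell (0.0799%), 41 of them among the 42 and Cd37 the one lost. The calls depend on single arrays. Leaving out saline replicate 1, 2 or 3 left 1, 0 and 1 calls by limma. Leaving out room air replicate 2 or 3 left 0 and 0. In those 3 fits with 0 calls, 933 (saline replicate 2), 949 (room air replicate 2) and 1135 (room air replicate 3) genes had an unadjusted p under 0.05, whereas leaving out room air replicate 1 gave 751, with 466 higher (3.39%) and 285 lower (2.07%), all 42 among them.

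Room air replicate 1 stood apart from the other arrays of its group. On the first principal component (48.3% of the variance) it lay at -17.96, against 17.05 and 18.86 for room air replicates 2 and 3, and the saline arrays lay at -12.17, -2.21 and -3.57. Array correlations were 0.988 to 0.992 within saline and 0.969 to 0.991 within room air. Heart muscle genes averaged, relative to the 6 arrays, -0.23, 0.21 and 0.15 with saline, against -1.17, 0.60 and 0.43 in room air alone. Airway secretory genes averaged -0.40, 0.18 and -0.07 with saline, against -0.80, 0.57 and 0.51 in room air alone. Tnnt2, cardiac troponin T, was 11.48, 11.64 and 11.50 with saline, against 10.08, 12.03 and 11.86 in room air alone. None of the 12 heart muscle genes or 14 airway secretory genes passed the test, and their medians were 0.14 and -0.16, or -0.40 and -0.63 without room air replicate 1. Without room air replicate 1, 4 of each list were lower with saline, beside 2.07% of all genes. Among them were Tnnt2, lower by 0.41 ± 0.09 (adjusted p = 0.047), and Scgb3a2, an airway secretoglobin, by 0.75 ± 0.09 (adjusted p = 0.00689). The part of tissue makeup in the other results was not tested, and the counts of leukocyte lists are given below with and without this array.

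**Figure D1:**
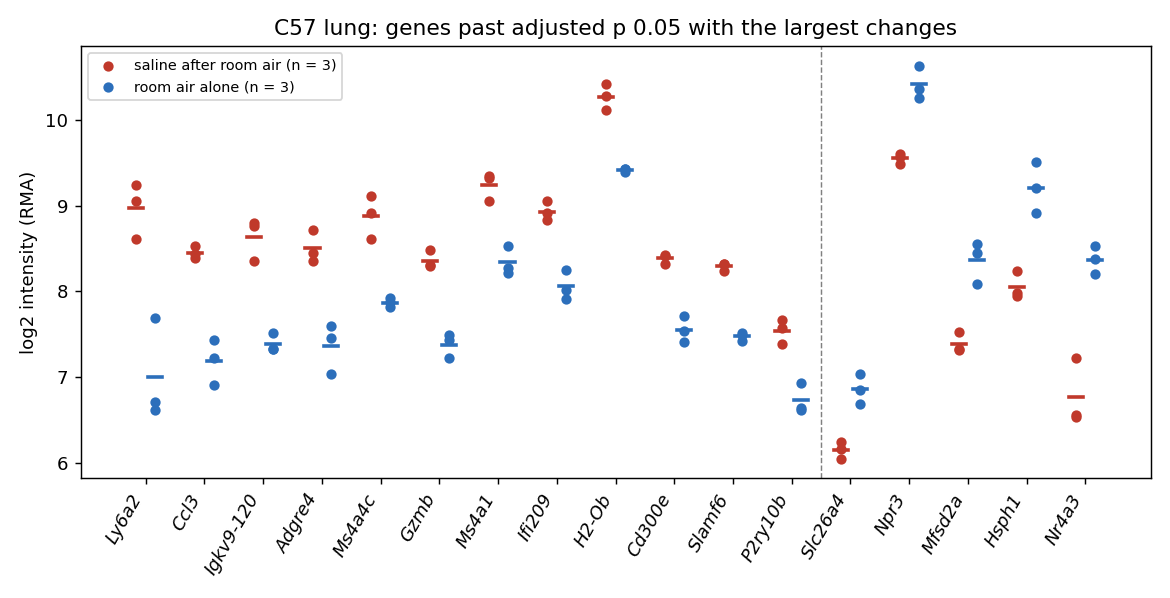
Log2 intensity (vertical axis) of the 12 genes with the largest rises and the 5 that fell, for each array. Red points are saline after room air and blue points room air alone (n = 3 each), bars are group means, and the dashed line separates genes that rose (left) from genes that fell. The 2 groups do not overlap for any of the 17 genes, and room air replicates of Ly6a2 spread from 6.61 to 7.69.

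Chemokine and cytotoxic genes were among the clearest rises. Ccl3, the chemokine MIP-1 alpha, was 8.44, 8.39 and 8.53 with saline, against 7.44, 6.91 and 7.22 in room air alone. It rose 2.40-fold, a log2 difference of 1.27 ± 0.13 (adjusted p = 0.0281). Ccl5, the chemokine RANTES of T and natural killer cells, was 10.48, 10.51 and 10.57 with saline, against 9.87, 9.64 and 9.63 in room air alone. The saline arrays of both genes were tightly grouped and lay above all room air arrays, and Ccl5 rose by 0.80 ± 0.09 (adjusted p = 0.0281). Gzmb, the granule protease granzyme B, was 8.30, 8.29 and 8.48 with saline, against 7.49, 7.22 and 7.43 in room air alone. Its rise was 0.98 ± 0.10 (adjusted p = 0.0281). Stat4, the signal transducer of interleukin 12, rose by 0.64 ± 0.10 (adjusted p = 0.0488).

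Of 11 natural killer genes tested, Gzmb alone rose, and 8 lay above room air on every saline array (0.269% and 8.19% over all genes). The list's median was 0.58, against -0.01 over all genes. Gzma, granzyme A, was 9.34, 9.19 and 8.96 with saline, against 8.42, 7.96 and 8.47 in room air alone, a difference of 0.88 ± 0.16 (adjusted p = 0.0725). Ncr1, the activating receptor NKp46, differed by 0.94 ± 0.21 (adjusted p = 0.12) and Nkg7, a granule membrane protein, by 0.77 ± 0.14 (adjusted p = 0.0726). With the replicate block Gzmb, Ncr1 and Nkg7 passed. Without room air replicate 1 there were 6, Gzma (adjusted p = 0.0218) and Prf1, the pore-forming perforin, included. Over all genes, 0.523% rose with the block and 3.39% without that array. The inhibitory and activating lectin receptors Klrd1, Klrk1 and Klra8 overlapped between the groups, with differences of 0.23, 0.23 and 0.29. Of the T cell genes, none of 11 passed, their median was 0.35, and 8 were higher on every saline array, led by Cd3g of the T cell receptor complex at 0.71 ± 0.16 (adjusted p = 0.142). Without room air replicate 1, 6 passed.

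B cell genes were the list with the highest median, 0.75. All 15 tested members had every saline array above every room air array, and 3 of them rose, Ms4a1, H2-Ob and Bank1. Over all genes, 8.19% lay above in this way and 0.269% rose. Ms4a1, the B cell antigen CD20, was 9.06, 9.35 and 9.32 with saline, against 8.53, 8.22 and 8.28 in room air alone. H2-Ob, a chain of the class II modulator H2-O, was 10.12, 10.42 and 10.28 with saline, against 9.43, 9.39 and 9.43 in room air alone. For both the gap between groups was wider than the spread within either, with rises of 0.90 ± 0.12 (adjusted p = 0.0364) and 0.86 ± 0.10 (adjusted p = 0.0281). Bank1, a scaffold of B cell receptor signalling, rose by 0.78 ± 0.09 (adjusted p = 0.0281). Cd79a, the signalling chain of the B cell receptor, had the largest difference of the list without passing. It was 10.10, 10.28 and 10.41 with saline, against 9.49, 8.63 and 9.04 in room air alone, a difference of 1.21 ± 0.20 (adjusted p = 0.0594). It passed with the replicate block (adjusted p = 0.0477) and without room air replicate 1 (adjusted p = 0.0029). In the latter fit 11 of the 15 passed, beside 3.39% of all genes. Over the 18 other settings tried, the list's median stayed between 0.63 and 0.85.

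Immunoglobulin and class II genes divided. Igkv9-120, a variable segment of the kappa light chain, was 8.35, 8.77 and 8.80 with saline, against 7.51, 7.33 and 7.33 in room air alone, and rose by 1.25 ± 0.13 (adjusted p = 0.0281). Kappa segments resemble each other, so the probe set may read several. Pou2af1, a coactivator of immunoglobulin transcription, rose by 0.77 ± 0.12 (adjusted p = 0.049), the 1 of 8 plasma cell and immunoglobulin genes to do so. When room air replicate 1 was left out, 2 of the 8 did. Over all genes, 0.269% rose, and 3.39% did without that array. Of 9 class II presentation genes only H2-Ob rose (2 of 9 without that array), and H2-Oa, its partner chain, differed by 0.66 ± 0.11 (adjusted p = 0.0686). The classical chains H2-Aa, H2-Ab1 and H2-Eb1, carried by dendritic cells and macrophages too, differed by 0.07, 0.09 and -0.01, with overlapping groups.

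**Figure D2:**
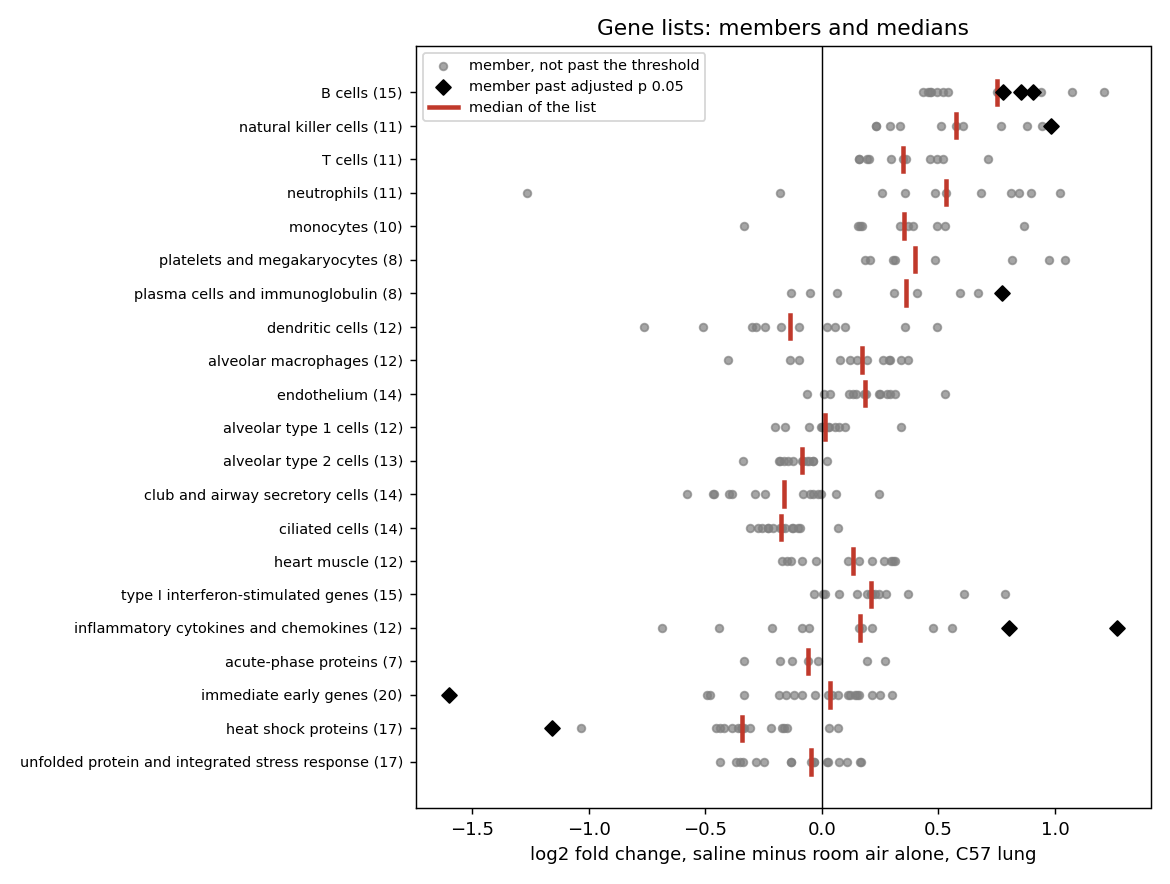
Log2 fold change, saline minus room air alone (horizontal axis), of the tested members of 21 gene lists, with the number tested in parentheses. Grey points did not pass, black diamonds passed adjusted p under 0.05, and red bars are list medians. B cell members all lie right of zero, with a median of 0.75, and heat shock members have a median of -0.34.

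Several genes known from patrolling monocytes, the low-Ly6C monocytes that crawl along capillary walls, were among those that rose. Adgre4, an adhesion G protein-coupled receptor of myeloid cells, was 8.35, 8.45 and 8.72 with saline, against 7.59, 7.04 and 7.46 in room air alone. It rose by 1.14 ± 0.16 (adjusted p = 0.0364). Cd300e, a receptor of the same cells, was 8.33, 8.43 and 8.42 with saline, against 7.72, 7.41 and 7.53 in room air alone, and rose by 0.84 ± 0.10 (adjusted p = 0.0281). Clec4a1, a C-type lectin, and Fcgr4, an activating immunoglobulin G receptor, rose by 0.74 ± 0.09 and 0.77 ± 0.12 (adjusted p = 0.0281 and 0.0488). Of 16 genes known from these cells, listed after the values were seen, 5 rose and 10 were higher on every saline array. The shares over all genes were 0.269% and 8.19%, and the list's median was 0.61. Stap1, described below as an adaptor of B cell signalling, was among the 5 that rose. With room air replicate 1 left out, 9 of the 16 passed. Nr4a1, the nuclear receptor they depend on in mice, was 9.53, 10.05 and 10.87 with saline, against 10.81, 10.53 and 10.11 in room air alone, with overlapping groups. Of 10 genes on the general monocyte list none passed, and 5 were higher on every saline array (8.19% over all genes). Among them Ccr2, the receptor that guides inflammatory monocytes, differed by 0.53 ± 0.13 (adjusted p = 0.167). Without room air replicate 1, 4 of the 10 rose, beside 3.39% of all genes.

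Several of the risen genes belong to gene families. The families were picked after their values were seen, and their counts describe these arrays only. Over all genes, 0.269% rose, and 0.523% did with the replicate block. Without room air replicate 1, 3.39% of all genes were higher and 2.07% lower, so family counts from that fit stand beside larger shares. Ms4a4c, of the MS4A membrane proteins, was 9.11, 8.62 and 8.92 with saline, against 7.87, 7.92 and 7.82 in room air alone. It rose by 1.01 ± 0.13 (adjusted p = 0.0351), and with Ms4a1 made 2 of 11 tested members, against 7 without room air replicate 1. Of 10 genes of the SLAM receptors and their adaptors, which tune contacts between leukocytes, Slamf6, Slamf1 and Cd244a rose, and 4 did without that array. Slamf6 was 8.24, 8.32 and 8.32 with saline, against 7.52, 7.49 and 7.42 in room air alone, a rise of 0.82 ± 0.08 (adjusted p = 0.0281). Of 9 PYHIN genes, interferon-inducible sensors and regulators, 4 rose. Ifi209 was 8.91, 8.83 and 9.05 with saline, against 8.25, 8.01 and 7.91 in room air alone, and rose by 0.87 ± 0.11 (adjusted p = 0.0351). Ifi214, Ifi213 and Ifi207 rose by 0.74, 0.66 and 0.61. With the replicate block 5 of the 9 passed, and without room air replicate 1, 8 were higher and Ifi205 lower. PYHIN genes are near copies of each other, so their probe sets may share signal.

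Ly6a2, a gene of the Ly6 family of surface proteins, had the largest change of the 42 genes. It was 9.25, 9.05 and 8.62 with saline, against 7.69, 6.70 and 6.61 in room air alone. The 3.92-fold rise, 1.97 ± 0.28 (adjusted p = 0.0434), rested on groups that were each spread widely, and a related Ly6 gene may contribute to the probe set. P2ry10b, a G protein-coupled receptor gene, rose by 0.82 ± 0.12 (adjusted p = 0.0431). Of 16 genes that most leukocytes share, again listed after the values were seen, 6 rose and 15 were higher on every saline array. The shares over all genes were 0.269% and 8.19%, and the list's differences ran from 0.19 to 0.97. Leaving out room air replicate 1, 12 of the 16 passed, beside 3.39% of all genes. Laptm5, a lysosomal membrane protein of blood cells, was 12.13, 12.14 and 12.15 with saline, against 11.65, 11.52 and 11.48 in room air alone, and rose by 0.59 ± 0.08 (adjusted p = 0.0364). Cd53 and Cd37, tetraspanins, rose by 0.72 ± 0.09 and 0.74 ± 0.11, Coro1a, an actin regulator, by 0.65 ± 0.09 and Itga4, the alpha 4 integrin, by 0.56 ± 0.08. Cd37 lost its call with the replicate block (adjusted p = 0.0536). Arhgdib had the largest difference of the list without passing, 0.97 ± 0.16 (adjusted p = 0.0546, and 0.0367 with the block). Ptprc, the common leukocyte antigen CD45, differed by 0.46 ± 0.10 (adjusted p = 0.107).

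Other genes that rose were Stap1, an adaptor of B cell signalling, by 0.80 ± 0.12 and Milr1, an inhibitory receptor of mast cells, by 0.72 ± 0.10. Ripor2 rose by 0.72 ± 0.08, with saline arrays at 9.38, 9.40 and 9.41 against 8.73, 8.58 and 8.74 in room air alone. Tlr7, the receptor for single-stranded RNA, and Hpse, which cuts heparan sulfate, rose by 0.66 ± 0.10 and 0.67 ± 0.10. B3gnt5, a glycolipid glycosyltransferase, and AB124611 rose by 0.61 ± 0.09 and 0.63 ± 0.10. Gmfg, an actin regulator of blood cells, and Trim30a, an interferon-inducible TRIM protein, rose least, by 0.54 ± 0.08 and 0.54 ± 0.07. Adjusted p lay between 0.0281 and 0.049 for each gene of this paragraph.

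Neutrophil genes did not pass. Mmp8, neutrophil collagenase, lay at 6.61 to 7.21 with saline, against 5.68 to 6.20 in room air alone, a difference of 1.02 ± 0.18 (adjusted p = 0.0686). It passed with the replicate block (adjusted p = 0.0188). Its room air values all lay below the filter on dim genes, so it entered the test only through the saline arrays and had to be higher there. S100a8, a calcium-binding protein abundant in neutrophils, was 8.70, 7.75 and 7.46 with saline, against 7.34, 7.20 and 6.84 in room air alone, and differed by 0.85 ± 0.29 (adjusted p = 0.336). Replicate 1 of the saline group held the highest value for both. Of the 11 neutrophil genes, 5 were higher on every saline array (8.19% over all genes) and the median was 0.53. Without room air replicate 1, Mmp8 and Csf3r, the receptor for granulocyte colony-stimulating factor, rose and Ltf fell. Ltf, lactoferrin, which airway glands make too, was 7.93, 10.30 and 8.38 with saline, against 7.46, 11.64 and 11.30 in room air alone.

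Platelet genes divided by size of change. Ppbp, a platelet chemokine precursor, was 12.21, 11.75 and 11.59 with saline, against 11.03, 10.47 and 10.93 in room air alone, a difference of 1.04 ± 0.19 (adjusted p = 0.0788). Tubb1, the platelet tubulin, differed by 0.98 ± 0.19 (adjusted p = 0.0822), and Pf4, platelet factor 4, by 0.21 ± 0.19 with overlapping groups. None of 8 passed, while Ppbp, Tubb1 and Gp9 passed with the replicate block (adjusted p = 0.0266, 0.0209 and 0.0231). With room air replicate 1 left out, 3 of the 8 rose, Ppbp, Tubb1 and Clec1b, beside 3.39% of all genes. The red cell genes Alas2 and Slc4a1, the 2 tested of that list, were higher on every saline array, by 0.44 ± 0.15 and 0.51 ± 0.13, and did not pass. Slc4a1 passed without room air replicate 1 (adjusted p = 0.0157).

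Of 12 inflammatory cytokine and chemokine genes bright enough to test, of 23 listed, 2 rose, Ccl3 and Ccl5 (0.269% over all genes). The list's median was 0.17. Il1b was 8.96, 8.50 and 8.60 with saline, against 8.42, 8.21 and 7.76 in room air alone, a difference of 0.56 ± 0.18 (adjusted p = 0.314). Tnf differed by 0.48 ± 0.17 (adjusted p = 0.355) and passed without room air replicate 1 (adjusted p = 0.0217), where both remaining room air arrays lay below the filter on dim genes. Cxcl1, a neutrophil attractant, was 6.70, 6.87 and 6.75 with saline, against 6.90, 6.94 and 6.72 in room air alone, with no separation. Il33, an alarmin held in nuclei of epithelium and other barrier cells, was 9.19, 9.30 and 9.52 with saline, against 10.20, 10.01 and 9.86 in room air alone. It lay lower on every saline array, by 0.68 on the log2 scale (-0.68 ± 0.12, adjusted p = 0.07), and passed without room air replicate 1 (adjusted p = 0.0283). None of 7 acute-phase genes passed. Of 15 type I interferon-stimulated genes none passed and the median was 0.21. Rsad2 (viperin) and Irf7, an interferon regulatory factor, led them at 0.78 ± 0.15 and 0.61 ± 0.11 (adjusted p = 0.0802 and 0.0793), and Rsad2 passed with the replicate block (adjusted p = 0.0231). With room air replicate 1 left out, Rsad2 and Irf7 rose, 2 of the 15, beside 3.39% of all genes.

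Nr4a3 (NOR-1), a nuclear receptor of the immediate early class, had the largest fall. It was 6.55, 6.53 and 7.22 with saline, against 8.38, 8.53 and 8.20 in room air alone. The change was -1.60 ± 0.19 (adjusted p = 0.0281), which is 3.03-fold higher in room air alone. Its relatives Nr4a2 and Nr4a1 differed by -0.48 ± 0.16 and -0.33 ± 0.31, with overlapping groups. Of 20 immediate early genes Nr4a3 was the only one to pass, and the median was 0.03. Fos was 8.22, 8.35 and 8.63 with saline, against 8.11, 7.83 and 8.36 in room air alone, and Egr1 9.17, 9.62 and 9.95 against 10.02, 8.89 and 9.34. Neither separated the groups. The promoter of Nr4a3 is shown because the gene fell while most of its class did not separate the groups. Capitals mark the letters TGACGT, the core of the cAMP response element, searched on both strands as TGACGT and ACGTCA, and the sequence is from RefSeq (GRCm38.p6, chr4:48045055-48045354, plus strand, 250 bases before to 50 after the start).
Nr4a3 promoter: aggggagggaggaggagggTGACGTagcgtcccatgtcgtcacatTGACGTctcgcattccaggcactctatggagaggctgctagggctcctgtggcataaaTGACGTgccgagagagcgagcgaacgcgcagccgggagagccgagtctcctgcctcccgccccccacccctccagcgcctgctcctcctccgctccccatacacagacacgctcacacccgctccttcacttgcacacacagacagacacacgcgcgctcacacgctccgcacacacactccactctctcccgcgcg
The core is present 3 times. It was found in 2468 of 32851 promoters (7.51%), and in 7 of the 16 immediate early genes with a listed promoter, among them Fos, Atf3 and Egr2. The list was counted by gene, with a match in any listed promoter, and the background by promoter, so the shares differ in unit. A match is a description of letters and does not show binding.

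Of the heat shock genes 1 fell. Hsph1, a large chaperone that recharges HSP70, was 7.98, 8.24 and 7.94 with saline, against 8.91, 9.21 and 9.52 in room air alone. It fell by 1.16 on the log2 scale (-1.16 ± 0.16, adjusted p = 0.0364), 2.23-fold higher in room air alone, and was the 1 of 17 tested that passed. Over all genes, 0.0363% fell. Of the 17, 8 were lower on every saline array (8.21% over all genes) and the median was -0.34. Hspa1a, an inducible HSP70 whose probes may also read its near-identical neighbour Hspa1b, was 7.83, 7.96 and 8.51 with saline, against 8.99, 9.14 and 9.27 in room air alone. The difference, -1.03 ± 0.17, did not pass (adjusted p = 0.0626) and passed with the replicate block (adjusted p = 0.0209). Constitutive Hspa8 was 12.52, 12.45 and 12.53 with saline, against 12.81, 12.87 and 12.86 in room air alone, and Hsp90aa1 11.10, 11.21 and 11.21 against 11.40, 11.48 and 11.65. Both lay lower on every saline array by small amounts, -0.35 ± 0.08 and -0.34 ± 0.09 (adjusted p = 0.12 and 0.218). The co-chaperones Stip1, Fkbp4 and Dnaja1 differed by -0.44 ± 0.08, -0.42 ± 0.10 and -0.36 ± 0.10 without passing. Bag3 and the small heat shock protein Cryab overlapped, at 0.03 and 0.07. Without room air replicate 1, 9 of the 17 fell, beside 2.07% of all genes.

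Promoters of 3 heat shock genes are shown because they hold a heat shock element and Hsph1 fell. Capitals mark the heat shock element, searched as GAA, any 2 bases, TTC, any 2 bases and GAA, on both strands with overlapping matches joined, in RefSeq promoters of GRCm38.p6 of the same 300 bases. They are Hsph1 on the minus strand at chr5:149636266-149636565, the second of its 2 listed starts, Chordc1, an HSP90 partner, on the plus strand at chr9:18292017-18292316, and Hspe1, a mitochondrial chaperonin, on the plus strand at chr1:55087898-55088197.
Hsph1 promoter: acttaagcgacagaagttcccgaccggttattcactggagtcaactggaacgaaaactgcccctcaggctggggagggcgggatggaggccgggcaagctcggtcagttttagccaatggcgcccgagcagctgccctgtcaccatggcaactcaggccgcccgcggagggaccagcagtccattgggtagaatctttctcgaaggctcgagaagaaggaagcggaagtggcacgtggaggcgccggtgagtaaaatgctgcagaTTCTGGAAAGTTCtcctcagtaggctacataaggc
Chordc1 promoter: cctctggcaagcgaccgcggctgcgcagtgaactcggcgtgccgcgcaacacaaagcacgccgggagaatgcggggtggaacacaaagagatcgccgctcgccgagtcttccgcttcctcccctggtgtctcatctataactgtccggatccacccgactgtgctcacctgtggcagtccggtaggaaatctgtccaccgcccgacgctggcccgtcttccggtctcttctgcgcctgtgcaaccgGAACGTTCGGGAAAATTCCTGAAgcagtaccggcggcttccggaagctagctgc
Hspe1 promoter: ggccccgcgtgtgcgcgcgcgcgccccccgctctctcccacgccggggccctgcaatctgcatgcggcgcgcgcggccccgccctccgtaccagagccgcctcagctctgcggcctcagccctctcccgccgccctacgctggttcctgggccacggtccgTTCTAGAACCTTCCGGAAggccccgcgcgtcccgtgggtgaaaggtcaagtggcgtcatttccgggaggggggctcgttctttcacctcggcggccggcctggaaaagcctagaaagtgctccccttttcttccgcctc
The element was found in 198 of 32851 promoters (0.603%) and in 4 of the 14 heat shock genes with a listed promoter, the fourth being Hspd1, which faces Hspe1 across the same stretch. Here too the list was counted by gene, over any of its listed promoters, and Hsph1 and Hspd1 have 2 each. Changes of the 4 genes spread widely. Hsph1 fell, Chordc1 differed by -0.39 ± 0.14, Hspd1 by -0.17 ± 0.10 and Hspe1 by -0.16 ± 0.16, the last 3 with overlapping groups. Hspa1a and Hspa8 were lower on every saline array, and no match to these letters says nothing about heat shock factor there.

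**Figure D3:**
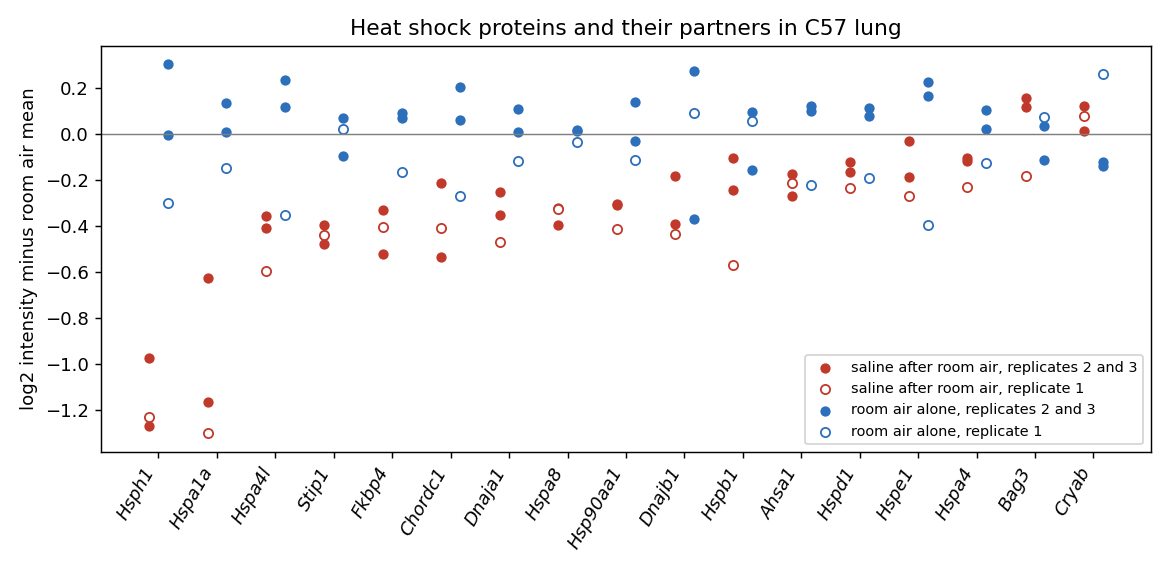
Log2 intensity minus the mean of the room air arrays (vertical axis) for the 17 tested heat shock genes, red for saline after room air and blue for room air alone, with replicate 1 of each group as open circles. Saline arrays lie below all room air arrays for 8 genes, Hsph1 among them, and room air replicate 1 is the lowest of its group for Hsph1 and Hspa1a.

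Genes answering stress of the endoplasmic reticulum and integrated stress targets split. Of 17 genes of the unfolded protein and integrated stress responses none passed, and 8 were lower on every saline array (8.21% over all genes). Hspa5 (BiP) was 11.29, 11.27 and 11.29 with saline, against 11.67, 11.55 and 11.65 in room air alone, a difference of -0.34 ± 0.08 (adjusted p = 0.137). Creld2 and Manf, secreted on reticulum stress, differed by -0.44 ± 0.09 and -0.37 ± 0.10. The integrated stress targets Trib3, Chac1 and Asns differed by 0.17, 0.16 and 0.07, so the list's median was -0.05. With room air replicate 1 left out, 2 of the 17 fell, beside 2.07% of all genes. They were Creld2 and Manf (adjusted p = 0.0367 and 0.0387). Of 17 glucocorticoid-responsive genes none passed, their median was -0.15, and the differences ran from -1.30 to 0.36. Without room air replicate 1, Sgk1 was higher with saline by 0.50 ± 0.09 (adjusted p = 0.0257). In that fit 2 genes of the list were lower, beside 2.07% of all genes. Zbtb16, a zinc finger factor that steroid hormone induces, was 10.09, 9.37 and 9.93 with saline, against 11.49, 10.45 and 11.35 in room air alone. It differed by -1.30 ± 0.28 (adjusted p = 0.119) and passed with the replicate block (adjusted p = 0.0125), as did Map3k6, a stress kinase, at -0.72 ± 0.13 (adjusted p = 0.0793, and 0.036 with the block). Fkbp5, a chaperone of the steroid receptor, was lower on every saline array by 0.51 on the log2 scale (-0.51 ± 0.11, adjusted p = 0.109), while Per1 and Tsc22d3 overlapped.

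A further 3 genes fell. Mfsd2a, the transporter of lysophosphatidylcholine, was 7.32, 7.53 and 7.32 with saline, against 8.45, 8.56 and 8.09 in room air alone, a change of -0.98 ± 0.13 (adjusted p = 0.0364). Npr3, the clearance receptor for natriuretic peptides, was 9.57, 9.60 and 9.49 with saline, against 10.64, 10.37 and 10.26 in room air alone, a change of -0.87 ± 0.11 (adjusted p = 0.0351). Slc26a4, the anion exchanger pendrin, was 6.05, 6.16 and 6.24 with saline, against 6.69, 7.03 and 6.84 in room air alone, a change of -0.71 ± 0.11 (adjusted p = 0.049). All 3 saline values lay below the filter, an array's 40th percentile of 6.42 to 6.51, so Slc26a4 entered the test only through room air and had to be lower with saline. No other of the 14 water and ion transport genes passed. The list's median was -0.16, and 4 of the 14, Slc26a4 included, were lower on every saline array (8.21% over all genes). The chloride channel Cftr and the sodium channel subunits Scnn1a and Scnn1g had overlapping groups. Scnn1b was higher on every saline array by 0.15 ± 0.09 (adjusted p = 0.619). Also among the lower genes with the smallest p, and short of the threshold, were Rap1gap, Lrp2 (megalin), Nectin1 and Cyp26b1, which breaks down retinoic acid, at -0.50 ± 0.08, -0.67 ± 0.12, -0.47 ± 0.09 and -0.76 ± 0.14. Lrp2 passed with the replicate block (adjusted p = 0.0399).

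Genes of the lung's structural cells did not pass. None of 13 alveolar type 2 genes, 12 alveolar type 1 genes, 14 ciliated cell genes, 14 endothelial genes or 12 fibroblast genes passed. Their medians were -0.09, 0.02, -0.18, 0.19 and 0.01. Sftpd, surfactant protein D, was 11.81, 11.70 and 11.80 with saline, against 12.01, 12.13 and 12.16 in room air alone (-0.34 ± 0.08, adjusted p = 0.169). Emcn, endomucin of capillaries and veins, was 11.15, 11.21 and 11.39 with saline, against 11.06, 10.65 and 10.45 in room air alone (0.53 ± 0.15, adjusted p = 0.253). The lists moved most where room air replicate 1 was left out. There 5 of 14 ciliated genes were lower and 4 of 14 endothelial genes higher with saline, beside 2.07% and 3.39% of all genes. Alveolar macrophage genes, 12 tested, had a median of 0.17 and dendritic cell genes, 12 tested, a median of -0.14, with none past the threshold. Leaving out room air replicate 1, 4 alveolar macrophage genes were higher, and 2 dendritic cell genes were higher and 1 lower. Lists with no passing member also included the circadian clock, cell cycle, ribosomal protein and oxidative phosphorylation genes, with medians of -0.04, 0.04, 0.02 and 0.04.

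The other C57 groups place these levels. On the arrays labelled saline after smoke, B cell genes averaged 0.01, 0.10 and -0.94 relative to the 6 arrays, and after LPS in room air -1.15, -1.09 and -0.72. With saline after room air they averaged 0.18, 0.40 and 0.48, and in room air alone -0.22, -0.48 and -0.36. Natural killer genes were 0.12, 0.39 and 0.45 on the arrays labelled saline after smoke and 0.64, 0.90 and 0.51 after LPS in room air, both above room air alone at -0.26, -0.42 and -0.18. Ccl3 was 8.16, 7.81 and 12.46 on the arrays labelled saline after smoke, and 12.89, 12.50 and 12.81 after LPS in room air. The third array labelled saline after smoke thus had the Ccl3 level of LPS arrays. The third array labelled LPS after smoke had 7.55, near the saline arrays, so both go against their labels. Neither enters the comparison above. Nr4a3 was 7.19, 7.17 and 7.37 on the arrays labelled saline after smoke, nearer to saline after room air than to room air alone.

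**Figure D4:**
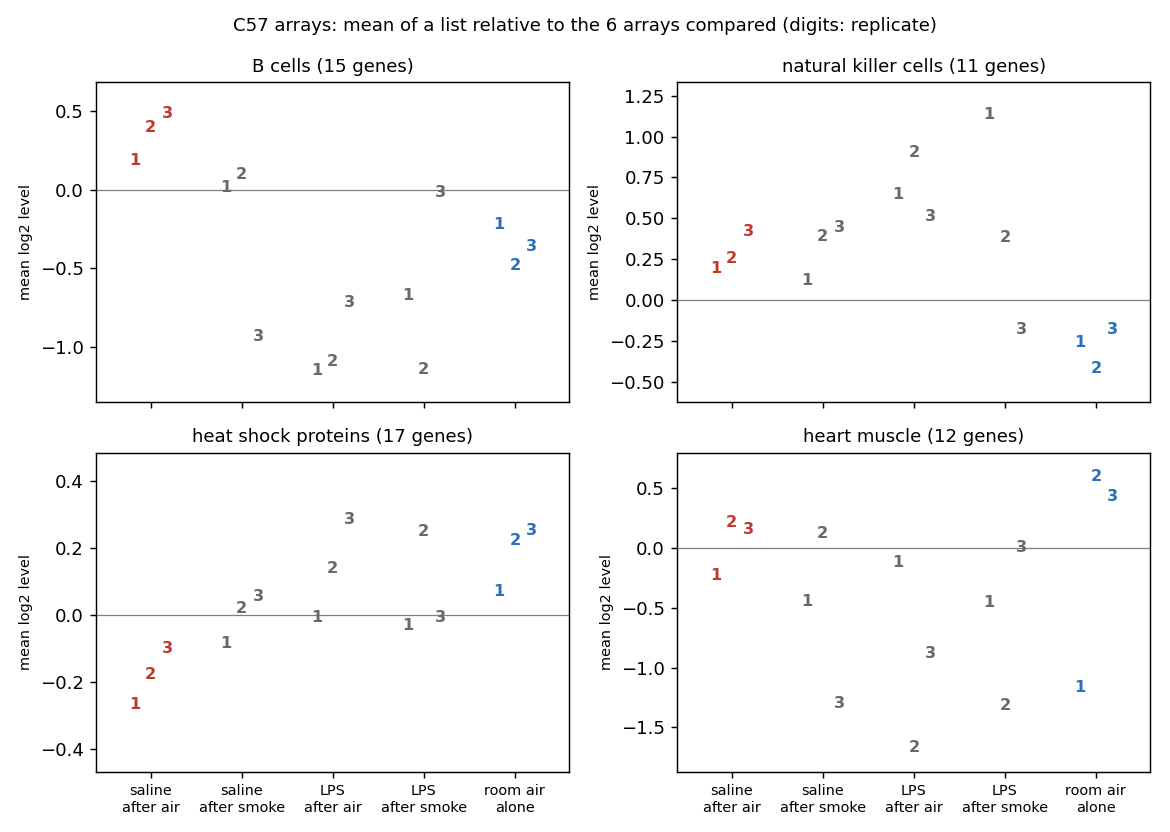
Mean log2 level of 4 gene lists relative to the 6 arrays compared (vertical axis) in the 5 C57 groups, with each array drawn as its replicate number, red for saline after room air and blue for room air alone. B cell and natural killer means are higher, and heat shock means lower, on all 3 saline arrays than on the room air arrays, while heart muscle separates room air replicate 1 from replicates 2 and 3.

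In AKR mice, another inbred strain, a similar contrast had the opposite sign for most of these genes. AKR mice titled with 3 weeks of room air and normal saline (3 arrays) were set against AKR mice titled with 3 weeks of room air alone (2 arrays), so that titled exposure time was equal there and unequal in C57. The 3 AKR arrays titled with 6 weeks of room air were not used, since their medians of 7.05 to 7.09 set them apart from the AKR saline arrays. The AKR contrast came from the limma fit to all 11 arrays, so its standard errors also draw on the spread of C57 arrays. C57 values set beside it are from the fit to the 6 C57 arrays, so the 2 kinds of standard error are not alike. In AKR, 67 of 14205 genes rose with saline (0.472%) and 431 fell (3.03%). Of the 42 C57 genes, 38 had the opposite sign in AKR, 23 of the 37 that rose in C57 fell there, and Hsph1, which fell in C57, rose there. None passed in the same direction. The difference between the strains' contrasts passed for 709 of 14205 genes (4.99%), 600 higher in C57 (4.22%) and 109 lower (0.767%), and for 35 of the 42, a count that shares its C57 arrays with the choice of the genes. Strain, and the unequal exposure time in C57 alone, cannot be told apart in it. The count moved with single arrays. It was 1601 without C57 room air replicate 1, 1161 without AKR saline replicate 2 and 135 without AKR room air replicate 2. It was 321 and 358 without C57 room air replicates 2 and 3, 306 and 329 without C57 saline replicates 2 and 3, and 424 without AKR room air replicate 1. Median intensities were 6.85 to 6.88 on these AKR saline arrays and 6.81 to 6.85 on the AKR room air arrays, against 7.03 to 7.09 on the 6 C57 arrays, so levels are compared within a strain only.

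B cell genes fell in AKR. Ms4a1 was 6.57, 6.44 and 6.89 with saline in AKR, against 7.46 and 7.74 in room air alone. That is -0.96 ± 0.16 in AKR beside 0.90 ± 0.12 in C57. Of the 15 B cell genes 12 fell in AKR, with a median of -0.74, and the strain difference passed for all 15. Over all genes, 3.03% fell in AKR and 4.22% passed with a higher difference in C57. Of 11 natural killer genes, 6 fell in AKR, and of 16 genes shared by leukocytes, 14. Hsph1 was 9.80, 11.09 and 10.71 with saline in AKR, against 8.64 and 8.17 in room air alone, 2.13 ± 0.31 beside -1.16 ± 0.16 in C57. Of 17 heat shock genes 8 rose in AKR (median 0.73), and the strain difference passed for 10, all lower in C57. The shares over all genes were 0.472% and 0.767%. Ccl3 was 6.53, 6.09 and 7.68 with saline in AKR, against 6.75 and 7.38 in room air alone, which overlap, and its strain difference did not pass (adjusted p = 0.0892). Platelet genes had a median of 0.34 in AKR beside 0.40 in C57, and none of their strain differences passed. Dendritic cell medians also had the same sign in both strains, -0.05 in AKR and -0.14 in C57, and 2 of their 12 strain differences passed. Heart muscle genes had a median of 1.21 and endothelial genes of -0.57 in AKR, with none of their strain differences past the threshold, and their part in the AKR values was not tested.

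**Figure D5:**
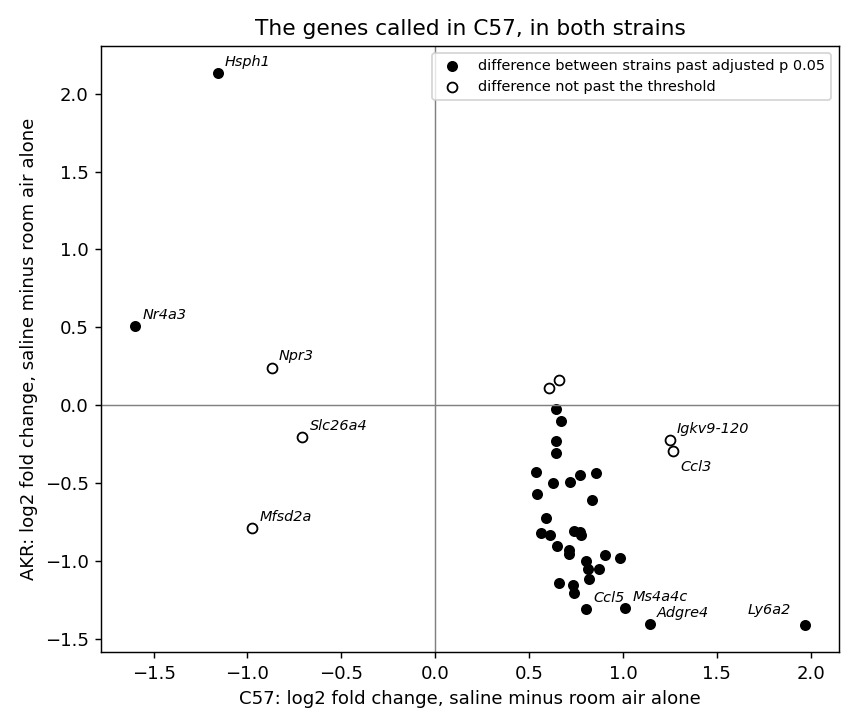
Log2 fold change with saline in C57 (horizontal axis) and in AKR (vertical axis) for the 42 genes that passed in C57. Filled points passed the test of the strain difference and open points did not. Most genes that rose in C57 lie below zero in AKR, Hsph1 lies at -1.16 in C57 and 2.13 in AKR, and Mfsd2a lies at -0.98 in C57 and -0.79 in AKR.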

How the data were processed

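RNA of lung tissue was labelled with biotin and hybridised to Affymetrix arrays, per the labels' protocols. The deposited values are log2 intensities for 35556 probe sets on 31 arrays, made by the authors with RMA, per the submitters' processing notes, whose version and settings are not given in the sources used here. The number of arrays limits the precision. Names came from the annotation of the array platform, in which 21789 probe sets had 1 symbol, 1621 several and 12146 none, and 99.6% of Entrez identifiers matched the RefSeq table. Each of 19938 genes was represented by its probe set with the highest mean. Genes above an array's 40th percentile on at least 3 of the 6 arrays were tested.

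Group means were fitted with limma 3.58.1 (R 4.3.3, lmFit and eBayes, two-sided, Benjamini-Hochberg over all genes) to the 6 arrays alone. With 3 arrays against 3, an exact permutation test of 1 gene cannot go below 0.1, so the moderated fit across genes was used. The strain difference is (C57 saline minus room air) minus (AKR saline minus room air), fitted to 11 arrays. The AKR contrast alone was taken from the same fit to 11 arrays. On simulated data with 200 changed genes, the C57 fit over 13764 genes recovered 91% of changes of 1 log2 unit with 13 false calls. The strain difference over 14205 genes recovered 76% with 7. The simulated noise was independent for each gene and array. Genes on the real arrays deviate together, as on room air replicate 1, so these rates may not hold for them.

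Replicate numbers come from the titles, which do not say that a number marks a shared litter or day. Arrays of equal number deviated together, with correlations of 0.402, 0.238 and 0.275, and the numbers were taken to pair the arrays. Saline replicate 2 also correlated with room air replicate 3, at 0.19, and saline replicate 3 with room air replicate 2 gave -0.003. Pairing of replicates 2 and 3 was thus less clear than that of replicate 1. Since the pairing was read from these same values, passing with the block is not separate support. The block is given where it changes the call of a gene named.

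The genes named are the 12 with the largest rises and the 12 largest falls that passed (5 did; the rest by smallest p), up to 5 members of each list by size of change, and the 8 largest strain differences each way. Other genes named were chosen after their values were seen. The members and the 56 lists, 26 of them cell type markers, were chosen with earlier results of these data known. Promoters are from RefSeq. Figures were drawn with matplotlib 3.10.9.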

Additional observations from a re-analysis of the deposited data

Results flagged for a closer look

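The contrast of saline with room air alone differed between the strains, by the test of the difference itself, for 709 genes. Titled exposure time was unequal in the C57 contrast only, so strain and exposure time cannot be told apart. The 8 differences with the largest positive value, C57 minus AKR on the log2 scale, were Serpinb10 (3.92), Ly6a2 (3.38), Glp1r (2.90), Vsnl1 (2.62), Clec4a3 (2.61), Adgre4 (2.54), Gzma (2.49) and Treml4 (2.45). Serpinb10 was 8.39, 8.41 and 8.88 with saline in C57, against 7.75, 6.56 and 6.92 in room air alone. In AKR it was 5.09, 5.16 and 4.34 with saline, against 7.07 and 7.54 in room air alone. These AKR saline values lay below the medians of their arrays, 6.85 to 6.88, so the size of the difference rests in part on dim values. Glp1r, the receptor of glucagon-like peptide 1, was 9.07, 9.44 and 7.94 with saline in AKR, against 10.94 and 11.20 in room air alone, while its C57 groups overlapped. Clec4a3, Adgre4 and Treml4 are genes of monocytes, and their C57 minus AKR differences had adjusted p of 0.00395, 0.000855 and 0.00456.

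The 8 with the largest negative value were Hsph1 (-3.29), Nr4a3 (-2.11), Snora31 (-2.08), Snora33 (-2.03), Rnu3a (-1.85), AY036118 (-1.76), Ppp1r3a (-1.71) and Snora16a (-1.69). Snora31, Snora33 and Snora16a are small nucleolar RNAs and Rnu3a is annotated as one of the U3 class. Snora31 was 9.66, 10.09 and 10.32 with saline in AKR, against 8.16 and 7.95 in room air alone, while its C57 values of 7.29, 6.99 and 7.53 with saline, against 7.19, 7.41 and 7.54 in room air alone overlapped. The cause of these differences was not tested.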

How the results depend on the processing

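The number of genes past the threshold in C57, 42 as reported, depended on the setting. It was 0 with no filter on dim genes (limma, 1477 at unadjusted p under 0.05, smallest adjusted p 0.0509) and 0 without empirical Bayes moderation (1384 at unadjusted p under 0.05). It was 85 with the filter at the 60th percentile, 27 with arrays centred on their medians, 111 with an intensity trend and robust prior, 2 with all 31 arrays in 1 fit and 16 with 29 arrays in 1 fit. With the replicate block it was 83. Leaving out 1 array gave 0 to 751. Leaving out both arrays numbered 1, a setting chosen after seeing the data, gave 456. The strain difference, 709 as reported, was 251 with all 31 arrays in 1 fit and 426 with the replicate block, and ranged from 135 to 1601 when 1 array was left out. The causes were not tested.

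None of the 49 genes recomputed under the C57 settings, those named by size of change or past the threshold, changed sign. Most settings could not have changed it. Leaving out arrays cannot do so where the groups do not overlap, and the block, moderation and trend leave the difference itself as it is. List members named besides these 49 were recomputed only with the block and without room air replicate 1, where Tnnt2 was -0.41 against 0.22 as reported. For genes past the threshold in C57, 348 of 751 recomputed values still passed and 403 did not. Medians of 12 lists gave 216 recomputed values, of which 206 moved by less than the spread between arrays. The heart muscle median, within that spread, was 0.14 as reported, -0.40 without room air replicate 1 and -0.38 without both arrays numbered 1. The cytokine median was -0.02 with no filter on dim genes and 0.68 with the 60th percentile filter, which tested 23 and 4 of its genes.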
